A study of Mus musculus with 8 samples.

Results

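The change in gene expression between 3 h and 24 h in T cells stimulated by soluble antibodies in the presence of latrunculin A (sAb+LatA) was taken as the 24 h level minus the 3 h level on the log2 scale. It rests on 2 of the 8 arrays of the series, and on the 23521 of 41345 probe sets that are listed with exactly 1 gene symbol, whatever their values. These probe sets gave 22180 genes, of which the 12774 that exceeded background on either array were compared. Naive CD3+ T cells of C57BL/6J mice, from spleens and lymph nodes with other cells removed by negative selection, were profiled untreated, after LatA alone, and after soluble anti-CD3/28 (sAb), immobilized anti-CD3/28 coated on the plate (iAb) or sAb+LatA at 3 h and at 24 h. The soluble antibodies were crosslinked with a secondary antibody. Stimulation lasted 3 h in each case, and the 24 h cells had then been washed and cultured further, so that the later arrays show cells after the end of the stimulus. Whether any LatA stayed with the cells after the wash is not given in the sources used here. The array of LatA alone carries the time label "control". Each condition has 1 array, so single differences carry no replicate error, and how many mice gave the cells of an array is not given in the sources used here.

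Latrunculin A is a marine toxin that binds actin monomers and keeps them out of filaments. In T cells, actin filaments hold up the microvilli on which T cell receptors sit and help to build the contact with an antigen-presenting cell, and free actin monomers hold back MRTF, the coactivator through which SRF drives many actin and muscle-type genes. A T cell activated through CD3 and CD28 first makes immediate early transcription factors and cytokines such as IL-2, then grows, and about a day later enters the cell cycle.

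The 8 arrays had medians of 4.74 to 4.94 and 11487 to 12282 genes above background, where background means the 95th percentile, per array, of 1430 chemosensory receptor genes (odour, taste and pheromone receptors; 4.72 at 3 h and 4.79 at 24 h with sAb+LatA). The top of the scale was lower with sAb+LatA at 3 h (13.3) than on the other arrays (14.2 or more). The T cell label held: 11 of 11 measured T cell marker genes were above background on every array, with a mean level of 9.75 at 3 h and 9.81 at 24 h with sAb+LatA. Of 24 measured myeloid and dendritic cell markers, 16 were above background at 3 h and 15 at 24 h with sAb+LatA (12 to 17 over the 8 arrays), and their summed log2 level was 129.1 at 3 h and 120.0 at 24 h, against 144.5 in untreated cells. Lyz1, Itgam, Cd14, Siglech, S100a8 and S100a9 were at or under background on both sAb+LatA arrays. B cell markers were above background for 8 of 14 genes at 3 h and 8 at 24 h with sAb+LatA (5 in untreated cells), with a mean level of 4.91 and 4.93. NK cell markers were above background for 4 of 10 genes at 3 h and 2 at 24 h, erythroid and platelet markers for 3 and 4 of 6. In a bulk sample, fewer cells of a type and less RNA per cell cannot be told apart, and normalization that gives all arrays like distributions cannot show a change in total RNA.

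Between 3 h and 24 h with sAb+LatA, genes of mitosis and DNA replication and the effector gene Gzmb stood far higher at 24 h, while Il2, the NR4A receptors, Xcl1 and Cd40lg stood far lower. In all, 1681 of 12774 genes were at least 1.5-fold higher at 24 h (13.2%) and 945 at least 1.5-fold lower (7.40%). Among the receptor genes, whose differences give the scatter between arrays for dim genes, 3.15% were that much higher and 4.13% that much lower, and the middle of their differences, from the 2.5 to the 97.5 percentile, ran from -0.70 to 0.61 on the log2 scale. The median change over all compared genes was 0.08, with an SD over genes of 0.58, and 58.2% of genes were higher at 24 h. The direction of small changes hangs on the scaling: with each array centred on its median over expressed genes, which moves all changes by 0.139, the counts were 1150 higher and 1466 lower, and the share of higher genes among those past 1.5-fold went from 64.0% to 44.0% (59.6% after a further quantile normalization).

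**Figure D1:**
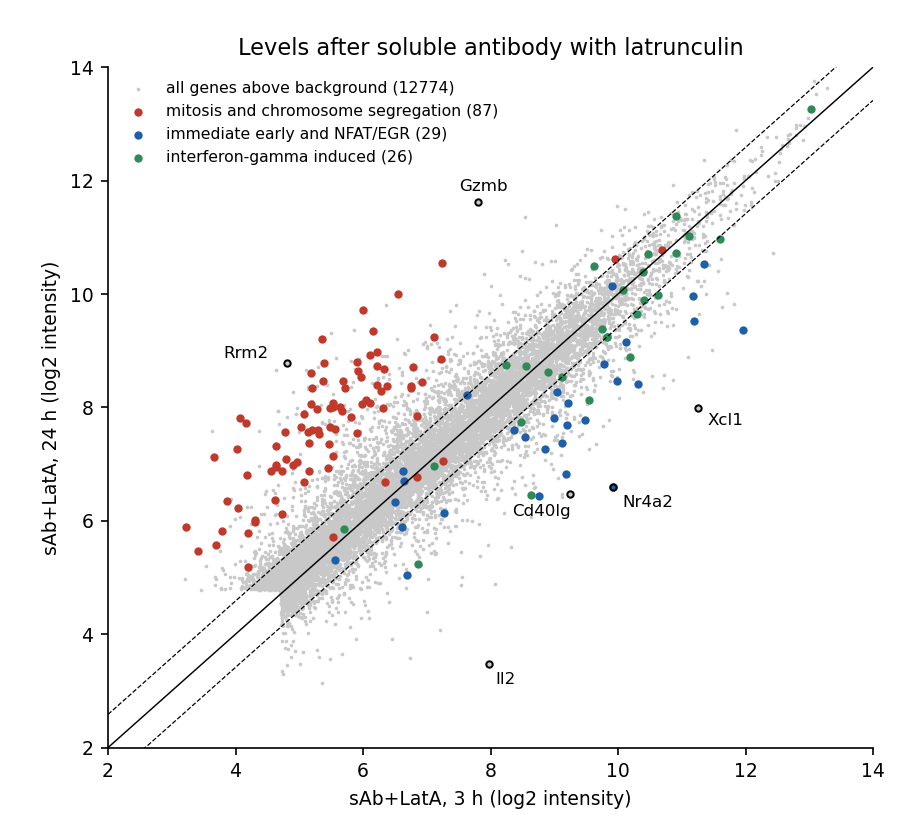
Log2 intensity of the 12774 genes above background on the sAb+LatA arrays of 3 h (x axis) and 24 h (y axis), with the line of equal levels and dashed lines at 1.5-fold. The mitosis genes (87 members, red) lie almost all above the upper dashed line, most of the immediate early genes (29, blue) below the lower one, and Il2 and Gzmb stand far from the line on opposite sides.

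Genes that carry cells through S phase and mitosis made up most of the top of the list. Rrm2, the small subunit of ribonucleotide reductase, which makes the deoxynucleotides for DNA synthesis, had a log2 level of 4.80 at 3 h and 8.78 at 24 h with sAb+LatA, 15.7-fold higher. On the other arrays Rrm2 was at 5.20 in untreated cells, at 4.86 and 4.65 after 3 h of sAb and iAb, and at 7.95 and 8.86 at 24 h. The gene has 2 probe sets, and their averaged change with sAb+LatA was 3.09. All 3 of the 24 h arrays thus stood above all 5 other arrays, with sAb+LatA between sAb and iAb. Cdk1, the kinase that starts mitosis, was at 5.19 and 8.61 with sAb+LatA (10.7-fold higher), at 4.68 and 7.99 with sAb, and at 5.22 and 8.66 with iAb. Top2a, the topoisomerase that untangles replicated chromosomes, was at 6.55 and 10.01 with sAb+LatA, at 6.55 and 9.37 with sAb, and at 6.52 and 10.25 with iAb. For both genes the 24 h level with sAb+LatA again lay between those of the other stimuli. Cdc6, which loads the replicative helicase at origins, went from 5.11 to 8.65 with sAb+LatA, against 2.94 log2 units with sAb and 3.65 with iAb. Nuf2, a kinetochore subunit, was 3.85 higher, and Dtl, a substrate receptor of the ubiquitin ligase that acts on replicating chromatin, 3.82 higher. The atypical repressor E2f8 was under background at 3 h (4.64) and at 8.65 at 24 h, at least 15.3-fold higher when the 3 h level is set at the background, and the mitotic checkpoint kinase Bub1 at least 8.06-fold higher on the same reading.

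As lists, 82 of the 87 mitosis and chromosome segregation genes above background were at least 1.5-fold higher at 24 h and 0 lower (median 2.22, against 0.08 over all genes; of 12774 genes 13.2% were that much higher). As 20 of these 87 genes were at or under background at 3 h, the median was also read with such levels set at the background, where it was 2.16. Of 58 replication and licensing genes 52 were higher and 0 lower (median 1.88), including Uhrf1, which reads hemimethylated DNA (3.51), and the GINS subunit Gins1 (at least 9.33-fold). Chromatin and histone genes, of which 21 of 93 listed were measured and 15 exceeded background, had a median of 1.40 (1.08 with dim levels set at background) and 11 higher, with the chromatin remodeller Hells at 3.44, the linker histone H1f5 at 3.09 and the histone chaperone Asf1b at 2.55. Among 29 G1 cyclins, cyclin-dependent kinases, E2F factors and inhibitors the picture was mixed: 16 were higher, such as Ccne1 (2.80), which partners CDK2 at the start of S phase, E2f2 (2.37) and the G1 kinase Cdk6 (2.27), and 2 were lower, among them the CDK inhibitor Cdkn1a, which went from 8.17 to 6.54. Thymidylate synthase Tyms (2.93) and thymidine kinase Tk1 (2.71) were among 34 nucleotide and one-carbon synthesis genes, of which 20 were higher and 1 lower (median 0.66).

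The promoters of 2 mitosis genes and 1 replication gene are shown because the cell cycle lists held the largest shares of changed members and because their control elements are known. They were picked by their change among list members whose window already held such elements. The matches in them were thus fixed by that choice. In capitals are the cell cycle genes homology region (CHR, TTTGAA) and the CCAAT box in Top2a and Cdk1, elements known from genes that peak in G2 and M phase, and a site for E2F factors (TTTCCCGC or TTTGGCGC) in Cdc6, each read on either strand. The windows are the 250 bases before the start of each gene in RefSeq on the build GRCm38.p6, written 5′ to 3′ on the gene's strand: Top2a on the minus strand at chr11:99024190-99024439, Cdk1 on the minus strand at chr10:69352913-69353162 and Cdc6 on the plus strand at chr11:98907901-98908150.
Top2a: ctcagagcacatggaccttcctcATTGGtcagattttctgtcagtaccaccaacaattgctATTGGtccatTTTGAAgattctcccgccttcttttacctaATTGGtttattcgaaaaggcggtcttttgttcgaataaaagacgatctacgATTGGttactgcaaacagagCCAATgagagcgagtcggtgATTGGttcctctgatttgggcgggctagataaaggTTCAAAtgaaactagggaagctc
Cdk1: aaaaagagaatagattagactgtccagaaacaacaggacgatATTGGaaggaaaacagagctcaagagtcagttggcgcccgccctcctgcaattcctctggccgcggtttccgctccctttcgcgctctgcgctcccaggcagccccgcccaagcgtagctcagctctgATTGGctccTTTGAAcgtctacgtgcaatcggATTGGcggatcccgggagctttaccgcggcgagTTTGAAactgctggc
Cdc6: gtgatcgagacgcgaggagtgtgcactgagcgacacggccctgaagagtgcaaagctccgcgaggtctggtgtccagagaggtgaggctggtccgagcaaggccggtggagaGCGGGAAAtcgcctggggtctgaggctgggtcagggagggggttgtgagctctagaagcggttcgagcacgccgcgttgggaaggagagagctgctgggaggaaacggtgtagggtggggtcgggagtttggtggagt
Counting from the start, CHR matches began at -179 and -23 in Top2a, which also held 6 CCAAT boxes, and at -71 and -15 in Cdk1, which held 3. The E2F match of Cdc6 began at -138, and in none of these promoters did matches of different motifs overlap. In windows of 300 bases (250 before and 50 after the start), the CHR letters were present in 49 of 74 promoters found for the mitosis list (66.2%), against 11.96% of the 9983 promoters of genes above background and 18.1% of all 27025. CCAAT was present in 53 of the 74 (71.6%, against 38.2% and 37.9%), and the E2F letters in 14 of 50 promoters of the replication list (28.0%, against 3.19% and 1.63%). Over all genes 1.5-fold higher at 24 h the CHR share was 16.9% of 1375 promoters and the E2F share 7.05%. These matches describe letters in a window and not the binding of a factor.

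The change with sAb+LatA ran largely parallel to that with sAb and with iAb, which were measured on separate arrays. With sAb 1192 of 12503 genes were at least 1.5-fold higher at 24 h (9.53%) and 706 lower (5.65%), and with iAb 2027 of 12602 higher (16.1%) and 1195 lower (9.48%). Over 12045 genes above background in all 3 pairs, the log2 changes with sAb+LatA and with sAb had a Pearson r of 0.82 (Spearman rho 0.72) and those with sAb+LatA and with iAb an r of 0.81 (rho 0.66). These are correlations across genes, which are not independent replicates, within arrays normalized together. The least-squares slope was 1.003 on the sAb changes and 0.69 on the iAb changes. Of the 1607 genes at least 1.5-fold higher at 24 h with sAb+LatA, 95.4% had the same sign with sAb (52.3% of all 12045 genes were positive there) and 94.2% with iAb (52.9%), while 56.0% were also past 1.5-fold with sAb (9.64% of all) and 72.4% with iAb (16.3%). Of the 909 lower genes 51.8% were also past 1.5-fold lower with sAb (5.62% of all genes) and 62.7% with iAb (9.41%). For 313 higher and 220 lower genes neither of the other stimuli reached 1.5-fold.

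**Figure D2:**
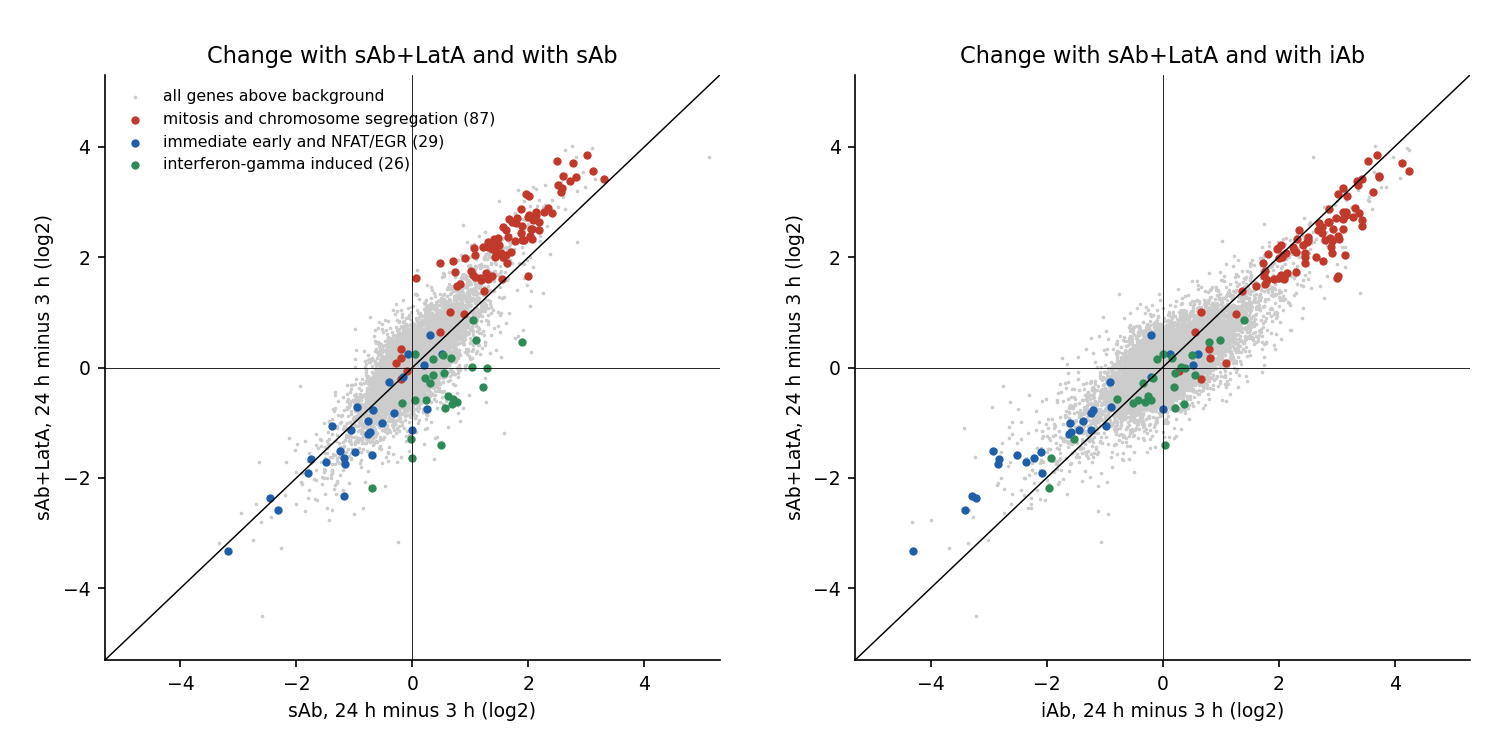
Log2 change from 3 h to 24 h with sAb+LatA (y axis) against that with sAb (left) and with iAb (right), for each gene above background, with the line of equal change. The mitosis genes (red) lie above the line on the left, where 85 of 87 had the larger change with sAb+LatA, and mostly below it on the right, where 71 of 87 had the smaller change.

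The parallel changes allowed a fit of a time effect shared by the stimuli. In the additive model over the 6 antibody arrays (limma, terms for stimulus and time, 2 residual degrees of freedom), 1749 of 13241 genes rose (13.2%) and 971 fell (7.33%) at a Benjamini-Hochberg adjusted p under 0.05. With each array centred on its median the fit called 1191 genes rising and 1680 falling, and without the sAb+LatA arrays 586 and 287. This fit says whether the 3 stimuli moved a gene together and nothing of sAb+LatA alone. By it, 81 of 87 mitosis genes and 52 of 58 replication genes rose and 0 fell, with Cdk1 (adjusted p = 0.000427), Cdc6 (0.000752), Top2a (0.000942) and Rrm2 (0.00101) among them. The genes named here were chosen by their change on the sAb+LatA arrays, which also enter the fit. Fitted without those arrays, 76 mitosis and 44 replication genes rose, these 4 among them (adjusted p = 0.00507 for Cdk1 and 0.00523 for Cdc6).

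Against sAb alone, the cell cycle genes went further with sAb+LatA. The change of the 87 mitosis genes was larger than with sAb for 85, at least 1.5-fold larger for 47 and that much smaller for 0 (median difference 0.63), and for 55 of 58 replication genes it was larger (median 0.47, 20 past 1.5-fold). Over all 13033 genes compared between these pairs of arrays, the change was at least 1.5-fold larger with sAb+LatA for 735 genes (5.64%) and smaller for 406 (3.12%), shares below those of the receptor genes (9.44% and 7.34%), so that the fold alone does not set a single gene apart from the scatter of 4 arrays. The gap of the mitosis list opened at 24 h: the median level of its members with sAb+LatA differed by -0.03 from that with sAb at 3 h and by 0.62 at 24 h. Against iAb the order turned, with a smaller change for 71 of 87 mitosis genes (median difference -0.29, 18 at least 1.5-fold smaller, 0 larger). The background for that comparison was 990 of 13085 genes larger (7.57%) and 907 smaller (6.93%), again below the receptor genes on the second count (11.2%) and near them on the first (8.18%).

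The genes with the highest difference from the sAb change included some of DNA replication, repair and the kinetochore, and they are given as a description, since that difference chose them. Fam111a, a PCNA-binding protease, was at 6.75 and 8.24 with sAb and at 5.81 and 8.82 with sAb+LatA, a change of 1.49 against 3.02. Fanci, part of the Fanconi anaemia repair complex, was at 6.80 and 6.89 with sAb, at 5.75 and 7.51 with sAb+LatA, and at 5.38 and 7.71 with iAb. Ndc80, the kinetochore protein that grips microtubules, was at 8.33 and 8.38 with sAb, at 7.23 and 8.85 with sAb+LatA, and at 6.20 and 9.20 with iAb. In these 3 genes the 3 h level with sAb+LatA lay below that with sAb and the 24 h level above it. In untreated cells Fam111a was at 6.66, Fanci at 7.585 and Ndc80 at 8.53. The 24 h level of Fanci with sAb+LatA was thus not above its untreated level, and its 3 h level lay below both. Ccdc141, a coiled-coil protein, was at 4.81 and 5.68 with sAb, at 4.37 and 6.96 with sAb+LatA, and at 4.50 and 7.18 with iAb, and its 3 h level was under background on all 3 arrays.

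Over all expressed genes, the levels with sAb+LatA came close to those with iAb by 24 h. The SD over genes of the level difference from iAb was 0.346 at 3 h and 0.224 at 24 h, and from sAb 0.300 and 0.268. Genes at least 1.5-fold above or below iAb numbered 568 and 539 at 3 h and 145 and 128 at 24 h, out of 13085. At the 24 h arrays these shares (1.11% and 0.978%) were below those of the receptor genes (4.06% and 5.94%). Levels with sAb+LatA at 24 h were at least 1.5-fold above those with sAb for 234 genes (1.80%) and below them for 253 (1.94%) out of 13033, against 3.08% each way of the receptor genes.

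The genes lower at 24 h were led by genes known as early products of T cell receptor signalling, though not all stood far above untreated cells at 3 h. Il2, the growth factor made within hours of costimulation, was at 3.15 in untreated cells and 3.27 with LatA alone, at 7.98 after 3 h of sAb+LatA, at 6.65 after sAb and at 7.35 after iAb. By 24 h it was under background on all 3 arrays (3.48 with sAb+LatA, 4.05 with sAb, 4.14 with iAb), which makes the drop with sAb+LatA at least 9.18-fold. The 3 h array of sAb+LatA held the highest Il2 level of the series. Nr4a1, an orphan nuclear receptor induced by T cell receptor signals, was at 11.96 and 9.37 with sAb+LatA, at 11.81 and 9.49 with sAb, and at 12.53 and 9.12 with iAb, while untreated cells were at 11.38. Nr4a2, of the same family, was 10.0-fold lower at 24 h (9.92 and 6.60). It was at 9.61 in untreated cells, and at 3 h at 9.34 with sAb and 11.24 with iAb. Nr4a1 and Nr4a2 with sAb+LatA thus lay below their untreated levels at 24 h. Cd40lg, the ligand with which helper T cells license B cells and dendritic cells, was at 8.18 in untreated cells. With sAb+LatA it was at 9.24 and 6.48, a drop of 2.76 on the log2 scale against 1.43 with sAb and 3.99 with iAb. Xcl1, a chemokine that draws cross-presenting dendritic cells, was at 7.09 in untreated cells and at 11.26 and 7.99 with sAb+LatA, a 9.62-fold difference. In the fit of a shared time effect all 5 fell (adjusted p from 0.00101 for Nr4a2 to 0.00918 for Cd40lg). They were chosen by their change with sAb+LatA, and in the fit without those arrays all 5 fell as well, with the highest adjusted p at 0.0386 for Cd40lg.

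As a list, 23 of 29 immediate early and NFAT/EGR genes were at least 1.5-fold lower at 24 h and 1 higher (median -1.14, against 7.40% of all genes lower), and 21 fell in the shared fit. Fosl2, an AP-1 subunit, was 2.36 lower on the log2 scale and the stress factor Atf3 2.32 lower (8.76 and 6.44). Of 16 NF-kappaB genes and inhibitors 11 were lower and 0 higher (median -0.96), with the deubiquitinase Tnfaip3, a brake on NF-kappaB, at -2.37, the nuclear inhibitor protein Nfkbid at -2.22 and the subunit Rel at -1.69. The untreated cells already held many of these transcripts: Rel was at 11.40 in untreated cells, 11.71 at 3 h and 10.01 at 24 h, and Tnfaip3 at 11.49, 10.86 and 8.49. Several of the strongest drops outside these lists had the same form. Rgs2, which shuts off Gq signalling, was at 10.84 in untreated cells, 9.12 at 3 h and 6.48 at 24 h. Ramp3, a partner of calcitonin-type receptors, was at 9.42, 8.07 and 4.89. For these genes the 24 h level lay far below that of the untreated cells as well.

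Lower members outnumbered higher ones in 3 lists of receptors and lineage factors (of all genes 7.40% were lower and 13.2% higher). Among 18 costimulatory and TNF receptor genes 9 were lower and 2 higher (median -0.76), with the self-ligand receptor Slamf1 at -2.12. Of 19 inhibitory receptor and anergy genes 11 were lower and 1 higher, Tigit by -2.11 and Pdcd1, which encodes PD-1, by -1.71. Of 19 T helper lineage factors 12 were lower and 1 higher (median -0.77). Irf4, needed for the growth of activated T cells, was at 11.63 and 9.77, still above the 9.03 of untreated cells. The Th2 factor Gata3 was at 9.24 and 7.70, and the follicular helper factor Bcl6 at 8.05 and 6.57. Cd69, the early activation marker that retains lymphocytes in tissue, was at 11.82 and 9.82, against 10.42 in untreated cells. Tests of the shared time effect passed for 10, 9 and 11 falling genes of these 3 lists (7.33% of all genes fell), and for 5 of each list without the sAb+LatA arrays.

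Cytokines and chemokines moved differently with sAb+LatA and with sAb. Of 21 cytokine genes above background on either sAb+LatA array, 10 were lower at 24 h and 2 higher with sAb+LatA (median -0.57), against 7.40% and 13.2% of all genes. With sAb 5 of the 21 were lower (5.65% of all genes) and 6 higher (9.53%), with a median of 0.14. Cytokines above background only on other arrays were thus left out, as 26 of 30 measured exceeded it on at least 1 of the 8 arrays. The change was at least 1.5-fold smaller than with sAb for 14 of the 21 and larger for 0, against 3.12% of all genes smaller. The median cytokine level with sAb+LatA was 0.51 above sAb and 0.35 below iAb at 3 h, and 0.22 below sAb and 0.05 above iAb at 24 h. Tnfsf14 (LIGHT), a TNF family ligand of T cells, was at 4.88 in untreated cells, 8.50 and 6.78 with sAb+LatA, 7.32 and 6.79 with sAb, and 9.18 and 7.07 with iAb. Of 11 chemokine genes 5 were lower and 1 higher, and 8 had a change at least 1.5-fold smaller than with sAb. Cxcl10, a chemokine that attracts CXCR3+ T cells, was at 8.64 and 6.46 with sAb+LatA, at 7.63 and 6.93 with sAb, and at 8.50 and 6.54 with iAb. Cxcl9, of the same receptor, was at 6.87 and 5.23 with sAb+LatA, at 6.10 and 6.09 with sAb, and at 7.69 and 5.78 with iAb. Ccl22, a ligand of CCR4, went the other way, with 5.92 and 7.31 with sAb+LatA and 6.36 and 8.41 with sAb. Myeloid cells also make these chemokines, and the summed myeloid marker level was 129.1 at 3 h and 120.0 at 24 h in the same cells. Its part in these values was not tested.

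Gzmb and Ifng differed more between the stimuli at 3 h than at 24 h. Gzmb, the serine protease of cytotoxic granules, was at 5.52 in untreated cells and 5.36 with LatA alone. At 3 h it stood at 5.80 with sAb, 7.81 with sAb+LatA and 9.06 with iAb, and at 24 h at 10.91, 11.62 and 11.65. The 3 arrays of 24 h thus lay within 0.74 of each other while those of 3 h were spread over 3.26, and the change was 5.11 with sAb, 3.82 with sAb+LatA and 2.59 with iAb. Gzmb rose in the shared fit (adjusted p = 0.00313, and 0.0145 without the sAb+LatA arrays). Ifng, the main Th1 and cytotoxic cytokine, was at 4.95 in untreated cells, at 5.24, 7.053 and 8.001 after 3 h of sAb, sAb+LatA and iAb, and at 7.28, 7.34 and 7.25 at 24 h. Its change was thus 2.04 with sAb, 0.28 with sAb+LatA and -0.76 with iAb, and no shared time effect passed (adjusted p = 0.499). Nkg7, a granule membrane protein, had the same order, 1.67, 0.99 and 0.68. Prf1, the pore-forming protein perforin, was at 7.603 and 7.003 with sAb+LatA, a change of -0.60, against -2.07 with iAb. Il12rb1, which lets T cells answer IL-12, was at 6.23 and 8.52, and differed from sAb by 0.57 at 3 h and 0.67 at 24 h. Over the 13 cytotoxic granule genes above background 3 were higher and 1 lower with sAb+LatA (median -0.05), against 13.2% and 7.40% of all genes. In the shared fit 3 rose and 2 fell (13.2% and 7.33% of all genes). The median difference of this list from sAb and from iAb was 0.04 and -0.20 at 3 h, and -0.04 and -0.03 at 24 h.

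**Figure D3:**
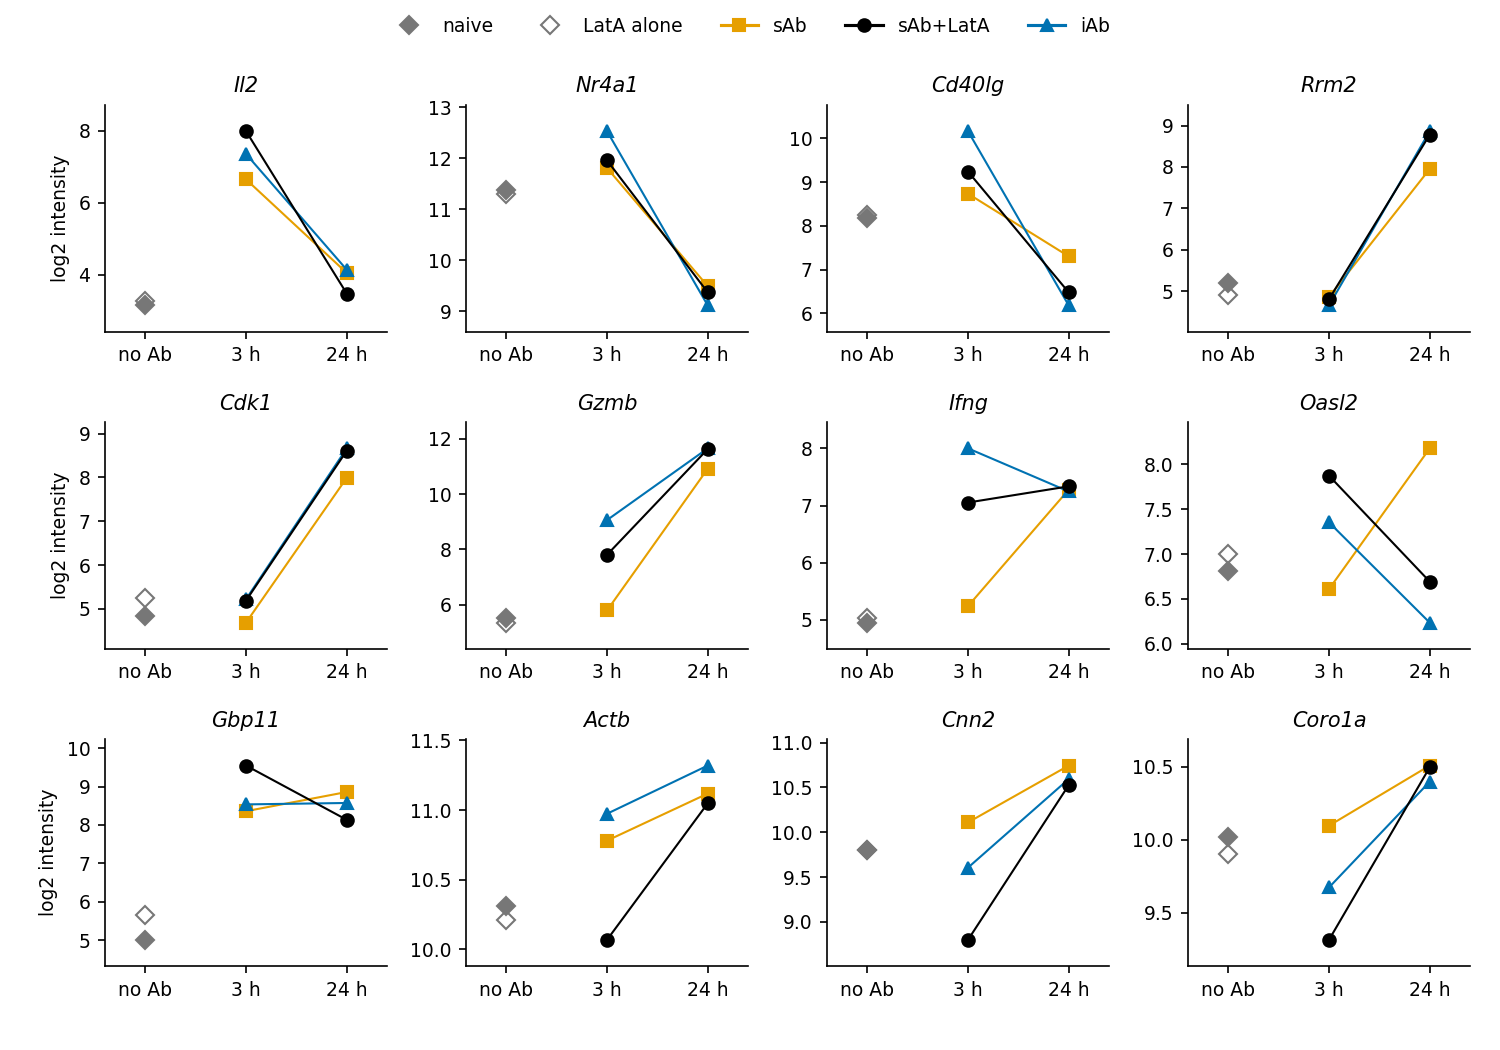
Log2 intensity of 12 genes on the 8 arrays, 1 array per point: untreated (filled diamond) and LatA alone (open diamond) on the left of each panel, then 3 h and 24 h with sAb (squares), sAb+LatA (circles) and iAb (triangles). Gzmb and Ifng are spread at 3 h and close together at 24 h, Oasl2 is lower at 24 h with sAb+LatA and iAb and higher with sAb, and Actb, Cnn2 and Coro1a are lowest at 3 h with sAb+LatA.

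Against iAb, the genes with the highest difference between the changes stood high at 3 h with iAb. They are given as a description, since that difference chose them and a high 3 h level with iAb raises it. Tnfsf11 (RANKL), a TNF family cytokine that induces osteoclasts, was at 8.18 and 7.08 with sAb+LatA and at 10.10 and 6.68 with iAb. Cyp11a1, the enzyme that starts steroid synthesis from cholesterol, was at 5.54 and 5.21 with sAb+LatA and at 7.93 and 5.19 with iAb. Cd160, a receptor of cytotoxic lymphocytes, was at 6.88 and 6.25 against 8.89 and 6.25. Il17f, a cytokine of Th17 cells, was at 5.66 and 5.17 against 7.42 and 5.12. At 24 h the levels with sAb+LatA and iAb differed by at most 0.39 in these genes, and at 3 h sAb+LatA stood below iAb by 1.92 for Tnfsf11 and by 2.39 for Cyp11a1. On the opposite side, Pros1, the anticoagulant protein S, was at 6.55 and 7.89 with sAb+LatA and at 5.92 and 9.33 with iAb.

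The interferon-gamma induced genes had the lowest median difference from the sAb change of the lists with 5 or more members above background. Of 26 genes of the interferon-gamma induced GTPases and class I list, 8 were at least 1.5-fold lower at 24 h and 1 higher with sAb+LatA (median -0.32). Of all genes 7.40% were that much lower and 13.2% higher. With sAb 11 of the 26 were higher and 1 lower (median 0.54), against 9.53% and 5.65% of all genes. With iAb the median was 0.03. The change was larger than with sAb for 1 of 26 genes and at least 1.5-fold smaller for 17 (3.12% of all genes), with a median difference of -0.92. At 3 h the level with sAb+LatA exceeded those of sAb and of iAb for 20 of 26 genes, and at 24 h it lay below both for 13. Above both at 3 h were 23 of 87 mitosis genes and 6 of 55 cytosolic ribosomal protein genes. Below both at 24 h were 4 and 22 of these, but also 11 of 19 BCL-2 family and death genes and 8 of 16 NF-kappaB genes. The 24 h count thus does not set the interferon-gamma list apart. The same counts over all genes were not made. Over all 26 the median differences from sAb and iAb were 0.54 and 0.20 at 3 h, and -0.33 and -0.03 at 24 h. The guanylate-binding protein Gbp11 was at 5.01 in untreated cells, at 9.55 and 8.13 with sAb+LatA, at 8.36 and 8.86 with sAb, and at 8.54 and 8.57 with iAb. The 3 h array of sAb+LatA was its highest. Cd274, which encodes PD-L1, was at 10.19 and 8.90 with sAb+LatA, at 9.40 and 9.38 with sAb, and at 10.37 and 8.83 with iAb. The shared fit called 3 of the 26 as rising and 1 as falling (13.2% and 7.33% of all genes).

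Of 33 genes on the antiviral interferon-stimulated list 4 were higher and 6 lower with sAb+LatA (median -0.03; 13.2% and 7.40% of all genes), against 15 higher and 0 lower with sAb (median 0.53; 9.53% of all genes higher). The change was at least 1.5-fold smaller than with sAb for 14 genes and larger for 0 (3.12% and 5.64% of all genes). The 3 h level with sAb+LatA was above those of sAb and iAb for 20 of 33, against 23 of 87 mitosis genes, and the same count over all genes was not made. Oasl2, an oligoadenylate synthetase-like protein, was at 6.81 in untreated cells, 7.87 and 6.69 with sAb+LatA, 6.61 and 8.18 with sAb, and 7.35 and 6.23 with iAb. Usp18, which restrains interferon signalling and also removes ISG15 from proteins, was at 8.92 and 8.12 with sAb+LatA and at 8.11 and 8.30 with sAb. Bst2 (tetherin), which holds budding virus at the membrane, was at 9.06 and 10.02 with sAb+LatA, 8.52 and 10.03 with sAb, and 9.11 and 10.20 with iAb, and rose in the shared fit (adjusted p = 0.00416, and 0.0180 without the sAb+LatA arrays). Herc6, a ubiquitin ligase, was 0.93 higher with sAb+LatA and 1.05 with sAb. So the list did not move as a block. Ifng itself was 1.81 above sAb at 3 h with sAb+LatA, and the myeloid markers stood at summed levels of 129.1 and 120.0 on the 2 sAb+LatA arrays. Neither was tested as a part of these values.

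Promoters of 2 genes of the interferon lists are shown for the element common to such genes, the interferon-stimulated response element (ISRE, GAAA followed after any 2 bases by GAAA, on either strand, in capitals). Both were picked by their difference from the sAb change among list members whose window already held the element. The matches in them were thus fixed by that choice as well. Ifit3b, an antiviral protein that binds foreign RNA, lies on the plus strand with its window at chr19:34607707-34607956, and Cxcl10 on the minus strand at chr5:92348890-92349139, again the 250 bases before the RefSeq start on GRCm38.p6.
Ifit3b: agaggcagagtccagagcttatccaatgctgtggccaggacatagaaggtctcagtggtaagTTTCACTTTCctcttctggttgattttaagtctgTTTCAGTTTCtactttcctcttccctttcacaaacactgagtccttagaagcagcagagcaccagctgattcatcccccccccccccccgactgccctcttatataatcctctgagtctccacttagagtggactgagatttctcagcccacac
Cxcl10: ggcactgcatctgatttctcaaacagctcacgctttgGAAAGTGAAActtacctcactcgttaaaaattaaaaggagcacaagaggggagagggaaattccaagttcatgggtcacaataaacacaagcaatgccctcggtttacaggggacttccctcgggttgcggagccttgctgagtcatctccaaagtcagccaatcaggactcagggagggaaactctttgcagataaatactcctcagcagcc
The matches began at -188 and -154 in Ifit3b and at -213 in Cxcl10. In the 300-base windows the letters were found in 15 of 30 promoters of the antiviral list and in 12 of 20 of the interferon-gamma list, against 3.03% of promoters of genes above background and 3.49% of all. Among all genes 1.5-fold lower at 24 h with sAb+LatA the share was 3.47% of 692 promoters.

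Several genes of the actin cytoskeleton were low at 3 h with sAb+LatA and were closer to the other arrays at 24 h. Actb, which encodes beta-actin, was at 10.31 in untreated cells and 10.21 with LatA alone, at 10.07 and 11.05 with sAb+LatA, at 10.78 and 11.12 with sAb, and at 10.97 and 11.32 with iAb. Cnn2, an actin-binding calponin, was at 8.80 and 10.53 with sAb+LatA, 10.11 and 10.74 with sAb, and 9.61 and 10.59 with iAb, against 9.80 in untreated cells. Coro1a, the main coronin of T cells, was at 9.32 and 10.50 with sAb+LatA, 10.10 and 10.51 with sAb, and 9.67 and 10.40 with iAb. In each of the 3 genes the 3 h array of sAb+LatA held the lowest level of the 8 arrays. They were named for the size of their change with sAb+LatA, a choice that favours a low 3 h level among rising genes. That array also had the lowest top of the scale (13.3), and its part in these levels was not tested. Tagln2, a transgelin that stabilises filaments, was at 8.60 and 10.26 with sAb+LatA, 8.82 and 9.83 with sAb, and 8.70 and 10.22 with iAb. In the shared fit Cnn2 (adjusted p = 0.0166), Coro1a (0.0246) and Tagln2 (0.00319) rose, and Actb missed the threshold (0.0599). Without the sAb+LatA arrays Tagln2 still passed (0.0218), while Cnn2 (0.0609), Coro1a (0.140) and Actb (0.327) did not.

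Of 31 actin, myosin and SRF/MRTF target genes 10 were at least 1.5-fold higher at 24 h and 1 lower with sAb+LatA (median 0.28, or 0.14 after centring), against 13.2% and 7.40% of all genes. The member that was lower, Filip1l, a filamin-A-interacting protein, was at 6.46 and 5.53. The 3 h level with sAb+LatA lay below those of sAb and iAb for 18 of 31 genes. Such counts varied between lists, with 25 of 87 mitosis genes, 32 of 55 cytosolic ribosomal protein genes and 10 of 18 myeloid markers below both. The count alone thus does not set the actin list apart, and the same count over all genes was not made. Over all 31 the median differences from sAb and iAb were -0.22 and -0.24 at 3 h, and -0.10 and 0.00 at 24 h. The change exceeded that with sAb by at least 1.5-fold for 7 members and fell short for 1, and exceeded that with iAb for 8 and fell short for 1 (background 5.64% and 7.57%). Of 56 actin assembly regulators 13 were higher and 1 lower (median 0.14, and 0.00 after centring), with the formin Diaph3 at 1.65, Coro2a at 1.56 and the WAVE complex subunit Abi3 at 1.24. Diaph3 was 1.82 higher with iAb and 0.74 higher with sAb. By the shared fit 2 of the 31 genes rose and 2 fell, and of the 56 regulators 13 rose and 2 fell (13.2% and 7.33% of all genes). The ERM, microvillus and membrane shedding genes were flat as a list, with 2 of 32 higher and 4 lower (median -0.03).

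**Figure D4:**
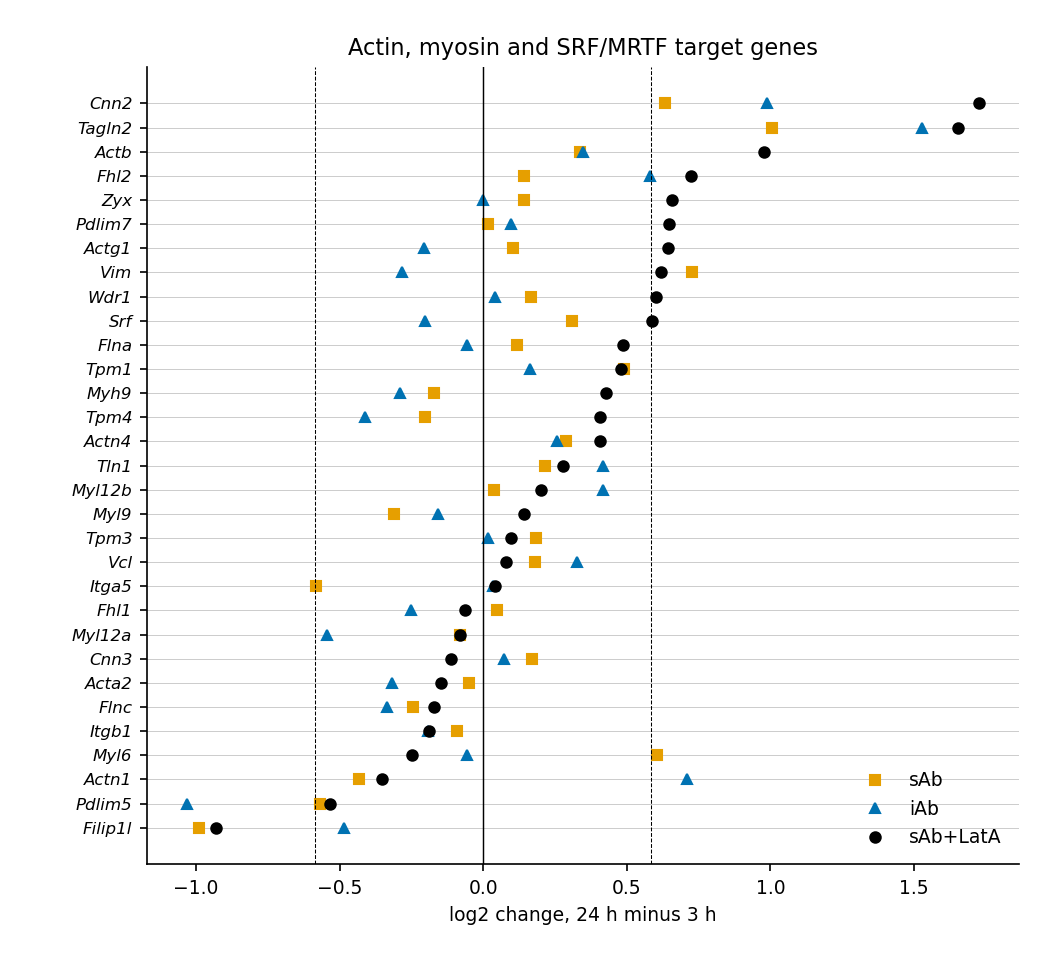
Log2 change from 3 h to 24 h (x axis) of the 31 actin, myosin and SRF/MRTF target genes above background, 1 row per gene, with sAb (squares), iAb (triangles) and sAb+LatA (circles). Dashed lines mark 1.5-fold. The circle lies to the right of the square for 21 of 31 genes and to the left of the triangle for 7, and 10 circles lie beyond the right dashed line.

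Several metabolic lists had a larger share of members higher at 24 h than the 13.2% of all genes. Cholesterol synthesis genes were at least 1.5-fold higher for 10 of 19 and lower for 0 (median 0.61), with Dhcr7, the last enzyme of the pathway, at 6.46 and 8.02, Mvd at 1.43 and Fdps at 1.33. Of 23 TCA cycle genes 10 were higher and 0 lower (median 0.53), led by the mitochondrial isocitrate dehydrogenase Idh2 (6.56 and 8.70). Of 19 glycolysis genes 9 were higher and 0 lower (median 0.44), and Tpi1, triose phosphate isomerase, was at 7.82 and 9.71. Phgdh, the first enzyme of serine synthesis, was 1.90 higher. The mitochondrial ribosomal protein genes had 21 of 71 higher (median 0.41) and the respiratory chain and ATP synthase genes 16 of 68 (median 0.36), with 0 lower in either list. Of 20 fatty acid synthesis genes 5 were higher and 0 lower (median 0.36). Since the medians of all these lists were 0.14 smaller after centring, the smaller ones rest in part on the scaling. By the shared fit 9 of 19 cholesterol, 12 of 24 TCA cycle, 27 of 71 mitochondrial ribosomal and 31 of 68 respiratory genes rose and 0 fell, 7 of 19 glycolysis genes rose and 1 fell, and 6 of 22 fatty acid synthesis genes rose and 1 fell. Without the sAb+LatA arrays 4, 2, 4, 2, 5 and 2 genes of these lists rose.

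Fatty acid oxidation and ribosome biogenesis genes changed differently with sAb+LatA and with iAb (median differences -0.33 and 0.46). This was not particular to them, as the median difference was -0.35 for cytokine receptors, 0.43 for immediate early genes and 0.39 for cytokines. Of 25 fatty acid oxidation genes 7 were higher and 0 lower with sAb+LatA (median 0.13, -0.01 after centring), against 13.2% and 7.40% of all genes. The median was 0.07 with sAb and 0.79 with iAb, and 10 of the 25 had a change at least 1.5-fold smaller than with iAb (6.93% of all genes). The median difference of their levels from iAb was 0.29 at 3 h and -0.11 at 24 h, and from sAb -0.19 and -0.03. Hadh, which carries out the third step of beta-oxidation, was at 7.16 and 9.13 with sAb+LatA, 7.62 and 8.71 with sAb, and 6.68 and 9.34 with iAb. Of 88 ribosome biogenesis genes 1 was higher and 1 lower (median 0.06, -0.08 after centring), against 13.2% and 7.40% of all genes. The median was 0.22 with sAb and -0.39 with iAb, and 16 members had a change at least 1.5-fold larger than with iAb (7.57% of all genes) and 0 smaller. Their 3 h level lay between the other stimuli, a median of 0.44 above sAb and 0.44 below iAb. At 24 h it was 0.25 above sAb and level with iAb (0.00). Myc, which drives such genes, was at 8.77 in untreated cells, 11.35 and 10.52 with sAb+LatA, 10.76 and 10.44 with sAb, and 11.72 and 10.48 with iAb, and fell in the shared fit (adjusted p = 0.0309), though not without the sAb+LatA arrays (0.135).

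**Figure D5:**
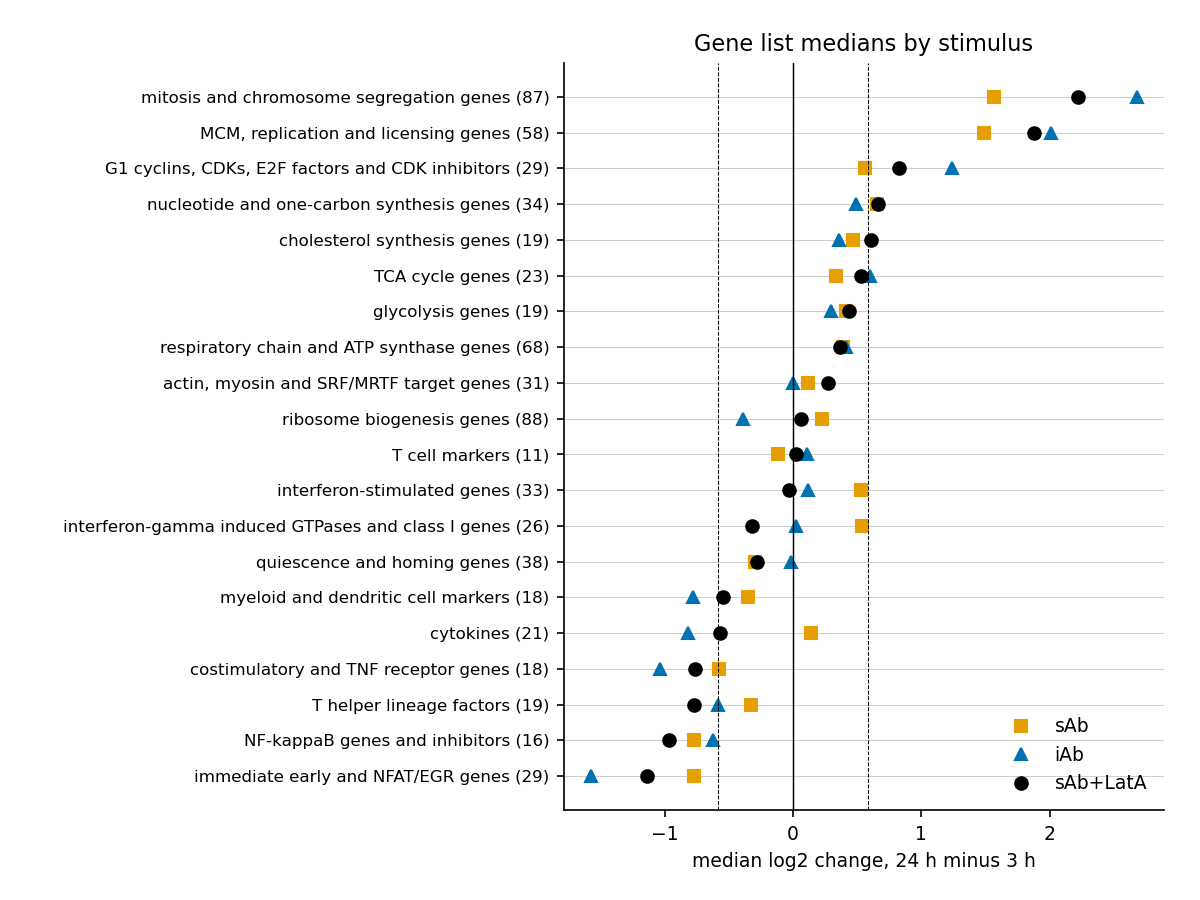
Median log2 change from 3 h to 24 h (x axis) of 20 gene lists with sAb (squares), iAb (triangles) and sAb+LatA (circles); the number of genes above background with sAb+LatA stands beside each list, and dashed lines mark 1.5-fold. Cell cycle lists lie furthest to the right and immediate early and NF-kappaB genes furthest to the left with sAb+LatA, and only with sAb do the interferon lists lie to the right of 0.5.

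Of 38 quiescence and homing genes, which mark the resting state, 10 were lower at 24 h with sAb+LatA (7.40% of all genes) and 5 higher, a share like the 13.2% of all genes (median -0.28), as against medians of -0.30 with sAb and -0.02 with iAb. Klf3, a repressor found in resting lymphocytes, was at 10.61 in untreated cells, 9.64 at 3 h and 8.39 at 24 h, and the antiproliferative genes Tob1 and Btg1 were 1.30 and 1.26 lower on the log2 scale. Gimap7, a GTPase of lymphocytes, was at 7.53 in untreated cells, 6.87 at 3 h and 8.25 at 24 h, so single members of the list ran in either direction. With iAb the change was at least 1.5-fold larger for 15 of the 38 (6.93% of all genes). Tob1 had been lower at 3 h with iAb (7.13) than with sAb+LatA (8.07), and the 24 h levels were 6.92 and 6.77. Among T cell surface genes Cd5, a restraint on receptor signalling, was at 10.78 and 9.67, and Thy1 at 9.31 and 10.24.

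The myeloid and dendritic cell markers were lower with time, 9 of 18 above background at least 1.5-fold and 0 higher (median -0.55, or -0.28 with dim levels set at background). Of all genes 7.40% were lower and 13.2% higher. Csf1r, the receptor for macrophage colony-stimulating factor, was at 7.66 in untreated cells, 6.50 at 3 h and 5.23 at 24 h with sAb+LatA, and Fcer1g, an immunoreceptor signal chain, at 8.30, 7.07 and 6.07. The haem-degrading enzyme Hmox1, abundant in macrophages, was at 9.52, 7.20 and 4.08 (under background). These levels were lower on every antibody array than in untreated cells, and 8 of 19 markers of the list fell in the shared fit (7.33% of all genes).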

How the data were processed

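RNA of naive CD3+ T cells was measured on 8 Affymetrix Mouse Gene ST 2.0 arrays, 1 per condition. The authors normalized all arrays jointly by robust multi-array averaging (background correction, quantile normalization, a summary per probe set). The deposited values are on a log2 scale, read from their range (1.20 to 14.3), since the sources used here do not state it. The table had 0 columns without a sample, and 0 pairs of arrays held identical values. Signal above background, defined by the 1430 chemosensory receptor genes, stands in for depth.

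In the annotation used here 23521 probe sets had 1 symbol, 1820 several and 16004 none. For the 1082 genes with several, the brightest probe set (by its 8-array mean) stood for the gene. RefSeq held 23328 of the single-symbol probe sets by gene number, and 0 symbols changed. The shared time effect was fitted with limma 3.58.1 in R 4.3.3, with empirical Bayes variances and Benjamini-Hochberg adjustment, and tested on simulated data. Other steps used Python 3.11.15, numpy 2.4.6, pandas 2.3.3 and matplotlib 3.10.9. Promoters came from RefSeq (GRCm38.p6).

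General knowledge of pathways gave 47 lists of genes (1580 in all). The arrays compared, the lists and the rules were chosen with earlier results of these data known. Genes named were the 15 highest and 15 lowest changes, the 6 highest and 6 lowest differences from the sAb change and from the iAb change, and, per list, at most 4 members that changed most, leaving out predicted genes, receptor segments, small RNAs and pseudogenes. Markers at background were named as well. The alternatives were no background filter, a background at the 99th percentile, centred arrays, a further quantile normalization, the mean over probe sets, a 2-fold threshold, and for the limma fit no stimulus term, an intensity trend, no filter, centred arrays and each stimulus left out.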

Additional observations from a re-analysis of the deposited data

Results flagged for a closer look

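In 4 named genes above background with sAb+LatA, the change from 3 h to 24 h ran opposite to that with another stimulus. Each change was past 1.5-fold by the deposited values. Il17a (0.64 with sAb+LatA, -1.19 with iAb) and Zfp273 (-0.72 and 1.35) were left out as under background on both sAb+LatA arrays. With 1 array per condition, none of these differences was tested. Oasl2, an antiviral oligoadenylate synthetase-like gene, changed by -1.18 with sAb+LatA and by 1.57 with sAb, a difference of -2.75 on the log2 scale. Its level of 7.87 at 3 h with sAb+LatA stood 1.27 above that with sAb, and at 24 h 1.49 below it. Ly6c1, a surface protein of effector and memory T cells and of monocytes, changed by -0.97 and 0.82 (difference -1.79), with levels of 6.31 and 5.34 with sAb+LatA and 4.59 and 5.41 with sAb, where the 3 h level was under the background of 4.83. With it set at the background the change with sAb was 0.58. Ifit3b changed by -0.62 and 1.26 (difference -1.88). Its levels were close to background, with 4.81 and 4.19 with sAb+LatA, and with dim levels set at the background its change with sAb+LatA was -0.02 and that with sAb was 0.44, as the sAb level at 3 h (4.01) was under background too. So only Oasl2 and Fbxo32 of these 4 had opposite changes past 1.5-fold when dim levels were set at the background. Fbxo32, a ubiquitin ligase subunit known from wasting muscle, changed by -0.61 with sAb+LatA and by 1.09 with iAb (difference -1.70), with levels of 6.96 and 6.35 against 5.63 and 6.72, and 8.53 in untreated cells. The receptor genes lay between -0.84 and 0.85 for the difference from sAb and between -0.97 and 0.88 for that from iAb (2.5 to 97.5 percentiles).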

How the results depend on the processing

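Each condition has 1 array, so the data give no error for a single gene's change with sAb+LatA alone, and signal near background limits dim genes. Of 209 named genes 193 were past 1.5-fold, and all 193 had the same sign and 184 stayed past it under centring, quantile normalization and the mean over probe sets. Averaging the probe sets brought the changes of Rgs2 to -1.94, Gata3 to -1.17 and Coro2a to 1.01. Of 224 list medians under the alternatives, 220 moved little, but those of ATF4, T cell marker, autophagy, cytosolic ribosomal, cytotoxic granule, fatty acid oxidation and ribosome biogenesis genes lay near 0 and changed sign. Pairing by mouse or replicate was not possible, because each condition has 1 array and the labels carry no replicate numbers. The stimulus is a term of the limma fit, which thus sets 24 h against 3 h within each stimulus. Without that term 1626 genes rose and 894 fell.

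Without a background filter, the change was larger than with sAb for 1420 genes and smaller for 804, larger than with iAb for 1871 and smaller for 1413, and the chromatin and histone median was 0.99. With the 99th percentile as background, 405 genes had a larger change than with sAb and 298 a smaller one, 506 a larger one than with iAb and 778 a smaller one, and the medians were -1.24 for chemokines, 1.17 for G1 cyclins and E2F factors and -0.94 for myeloid markers. At a 2-fold threshold 616 genes were higher and 330 lower, 94 and 85 against sAb, and 146 and 184 against iAb. Centring gave 1150 higher and 1466 lower genes, and 1191 rising and 1680 falling ones in the limma fit. The share of larger changes against sAb went from 64.4% to 54.1% after centring and 51.1% after quantile normalization, and against iAb from 990 larger and 907 smaller to 1433 and 645 after centring and 713 and 1097 after quantile normalization. Without the sAb+LatA arrays the limma fit called 586 rising and 287 falling genes, and without those of sAb or iAb 1555 and 870, or 1533 and 863. The cause of these shifts was not tested.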
